A study of Mus musculus with 12 samples.

Results

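The IFN regulatory factors (IRFs) are DNA-binding proteins that share a helix-turn-helix domain and bind GAAA repeats in the promoters of IFN and IFN response genes. The 8 genes Irf1, Irf2, Irf3, Irf4, Irf5, Irf7, Irf8 and Irf9 were taken by name as the members, out of 37991 genes in the count table, and no measured value was used to choose them. All 8 were detected and all 8 passed the filter on low counts, which kept 13538 genes.

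IRFs divide the work of IFN signaling between them. IRF3, IRF5 and IRF7 are activated by phosphorylation downstream of nucleic acid sensors and Toll-like receptors, and IRF3 and IRF7 then switch on the type I IFN genes. IRF9 joins STAT proteins in the complex ISGF3, which carries the signal of the type I IFN receptor to the ISRE elements of IFN response genes, and Irf7 is itself a target of ISGF3. IRF1 is an activator of the IFN-γ response, and IRF2 competes with it for the same sites. IRF4 and IRF8 are the lymphoid members, which bind with PU.1 or SPIB on composite sites. IRF4 is induced through the BCR and drives class switching and plasma cell differentiation.

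Poly(A)-selected RNA was sequenced from resting B cells of mouse spleen, either directly or after 3 h of culture with anti-IgM and IL-4, which engage the BCR and the IL-4 receptor. The Runx1 c-k/o mice carried floxed Runx1, in which Cre deletes exon 4, together with the CD23-iCre transgene, and the Cre-only controls carried the CD23-iCre transgene. Cells of the Runx1 c-k/o mice are also called Runx1-deficient here. All mice were 8 weeks old and C57B6. Cre under the CD23 promoter first acts at the transitional B cell stage, so that Runx1 was intact in all earlier stages and in other cell types of the same mice, and the Cre transgene was present in all groups. The cells were purified by negative selection, which removes non-B cells and CD43+ activated B cells. The 4 groups, Cre-only rest, Cre-only 3 h, Runx1 c-k/o rest and Runx1 c-k/o 3 h, had 3 samples each, which the study calls biological replicates. The labels do not say that each came from a separate mouse, so the p-values measure the spread between these samples.

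The samples held between 14442251 and 23641552 counts. One library in each Runx1 c-k/o group stood apart from its replicates. These were Runx1 c-k/o rest replicate 2 and Runx1 c-k/o 3 h replicate 1, whose pairings with the other samples of their group gave a chi-square per degree of freedom of 27.9 to 77.6, against 3.16 to 12.8 in all other pairs, and results that rest on them are given with and without them. The summed CPM of 10 B cell markers, among them Cd79a, was 16755 to 17629 in Cre-only and 18031 to 19523 in Runx1-deficient resting cells. At 3 h the same sums were 7800 to 8262 and 7364 to 9165. The 9 T cell markers summed to at most 11.9 CPM and the 7 NK cell markers to at most 7.88 CPM. The macrophage and monocyte markers, 11 of 11 detected and led by Csf1r, summed to 502 to 658 CPM in Cre-only and 441 to 932 in Runx1-deficient resting cells, and to 30.0 to 43.3 and 38.9 to 107 at 3 h. Of the plasmacytoid dendritic cell markers, which mark the cell type that has the highest IRF7 level, 7 of 7 were detected. Pacsin1, the most abundant, measured 13.2 to 40.7 CPM over all samples and Siglech 0.453 to 4.40. Klk1 and Clec10a measured 0.057 to 0.643 and 0.057 to 0.921 CPM, which is below 3 counts in some samples. The 6 plasma cell markers, which include Irf4 itself, summed to 1662 to 1748 CPM in Cre-only and 1609.7 to 1752 in Runx1-deficient cells at rest. Irf4 alone measured 1396 to 1534 and 1263 to 1473 CPM, so these sums mostly give its own level. Of the 6 markers 1, Sdc1, was lower in Runx1-deficient cells at rest (18.1 to 20.0 against 6.23 to 8.94 CPM, edgeR adjusted p = 0.00157). Erythroid markers summed to 44.5 to 324 against 297 to 499 CPM at rest and 14.1 to 164 against 134 to 210.1 at 3 h, and their part in any result was not tested. Runx1 counts cover all exons and do not measure the deletion of exon 4. Runx1 was 81.8 to 86.7 normalized CPM in Cre-only and 95.7 to 103 in Runx1-deficient resting cells, and 34.9 to 38.5 and 47.3 to 74.5 at 3 h.

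Irf4 had the highest level of the family in all groups. Levels of different genes were compared as TMM-normalized CPM, which are counts scaled to library size, per kb of exon. In resting Cre-only cells the mean level of Irf4 was 293 ± 16.9 CPM per kb (SD, n = 3), followed by Irf2 at 75.5 ± 1.10, Irf8 at 67.0 ± 2.54 and Irf5 at 66.1 ± 0.84. Irf8 and Irf5 did not differ beyond their spread. Irf1 came next at 43.8 ± 2.40 CPM per kb, then Irf3 at 23.3 ± 0.32, Irf9 at 21.8 ± 0.70 and Irf7 at 19.7 ± 2.06, and the ranges of Irf9 and Irf7 overlapped. After 3 h Irf4 was still first at 377 ± 27.2 CPM per kb and Irf8 was second at 115 ± 2.89. Irf2 went from second to sixth place, at 15.7 ± 0.71 CPM per kb, level with Irf9 at 15.5 ± 0.41. Irf7 was last at 5.0 ± 1.16. The order, and the shares and ratios given below, hold for the exon union and depend on the length used. Per kb of the longest transcript, resting Cre-only means were 293 for Irf4, 136 for Irf8, 85.6 for Irf5, 81.4 for Irf1 and 75.5 for Irf2. Irf4 was then still first, Irf8 was well above Irf5, and Irf2 was below Irf1.

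Summed over the 8 genes, the level per kb was 591 to 633 CPM in resting and 625 to 679 CPM in activated Cre-only cells, ranges that overlapped, so the mixture changed more than the sum. Irf4 made up 47.1% to 49.3% of the sum at rest and 56.8% to 60.1% at 3 h. The share of Irf8 was 10.8% to 11.1% at rest and 17.4% to 17.9% at 3 h. In the other direction, Irf2 held 12.1% to 12.6% of the sum at rest and 2.27% to 2.56% at 3 h. In Runx1-deficient cells the sum was 614 to 654 CPM per kb at rest and 640 to 714 at 3 h. At rest Irf5 stood second and Irf7 sixth in Runx1-deficient cells, though the ranges of Irf5, Irf2 and Irf8 overlapped from one to the next, and at 3 h Irf7 stood seventh and Irf2 last, with overlapping ranges. Irf7 held 5.91% to 6.74% of the sum at rest, where its level of 40.0 ± 3.57 CPM per kb overlapped that of Irf1, and 2.32% to 2.85% at 3 h. In Cre-only cells it held 2.75% to 3.61% and 0.61% to 1.01%.

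**Figure D1:**
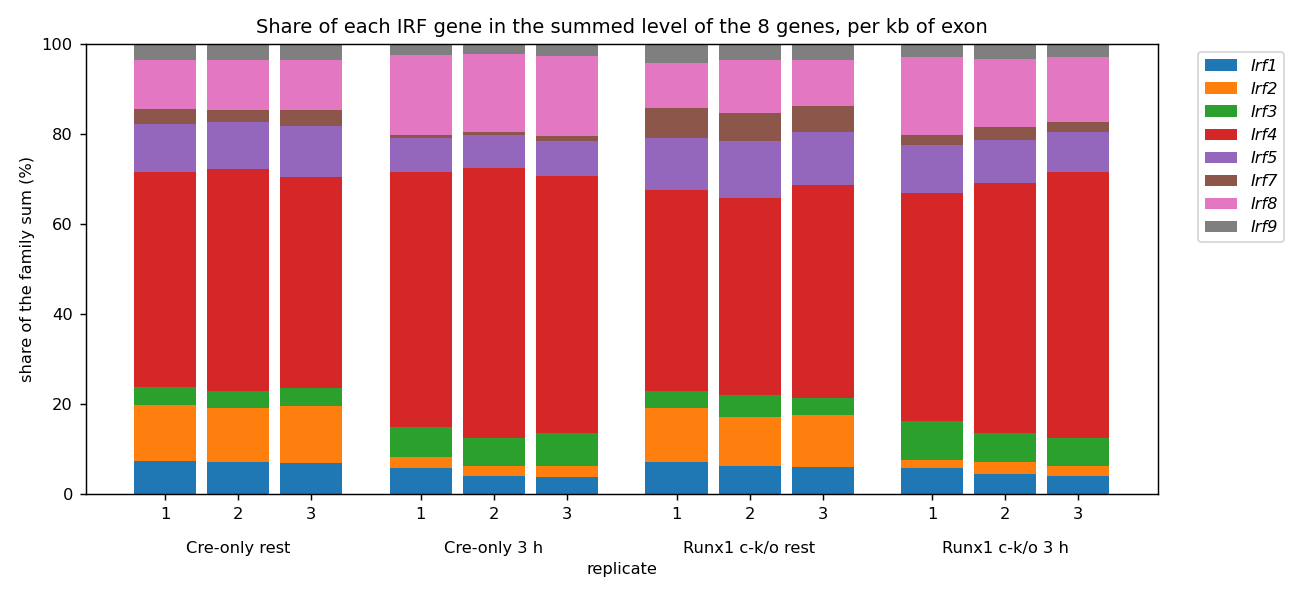
Share of each IRF gene in the summed level of the 8 genes (%, from normalized CPM per kb of exon), as 1 stacked bar per sample, for the 4 groups with 3 replicates each. Irf4 takes 43.9% to 60.1% of every bar. Irf2 shrinks and Irf8 widens from rest to 3 h in both genotypes, and the Irf7 band of every Runx1-deficient sample is wider than that of the Cre-only samples of the same time.

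All 8 genes differed between 3 h and rest in Cre-only cells. Activation here stands for the 3 h of culture with anti-IgM and IL-4. No group was cultured without them, so their effect and that of culture cannot be told apart. With adjusted p-values from edgeR (quasi-likelihood test, Benjamini-Hochberg adjustment over all tested genes), 8 of 8 IRF genes differed between 3 h and rest, 3 of them higher and 5 lower. Among all genes 75.0% were called, 38.6% higher and 36.4% lower, so a call here is the usual outcome and the sizes carry the description. In Runx1-deficient cells 6 of 8 were called, 3 higher and 3 lower, where 74.3% of all genes were called, 37.7% higher and 36.6% lower. The median log2 fold change of all tested genes was 0.03 in Cre-only and 0.00 in Runx1-deficient cells. These are bulk measurements, in which fewer cells of a type and less RNA per cell cannot be told apart. The macrophage and monocyte markers fell together with activation, and their part in the changes below was not tested.

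The 250 bases before the RefSeq transcription start (build GRCm38.p6, 5′ to 3′ on the strand of the gene) are shown for the gene that fell furthest, Irf2 (chr8:46739495-46739744), for Irf7 (chr7:141266425-141266674, minus strand), which fell next and differed between genotypes, for Irf8 (chr8:120736108-120736357), which rose, and for Irf5 (chr6:29526375-29526624), which differed between genotypes at 3 h. Capitals mark matches to 5 motifs that were searched on both strands.
Irf2: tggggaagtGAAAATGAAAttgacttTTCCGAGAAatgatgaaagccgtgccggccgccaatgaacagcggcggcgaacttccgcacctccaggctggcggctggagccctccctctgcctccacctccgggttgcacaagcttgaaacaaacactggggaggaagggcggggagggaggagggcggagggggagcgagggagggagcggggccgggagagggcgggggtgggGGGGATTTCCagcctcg
Irf7: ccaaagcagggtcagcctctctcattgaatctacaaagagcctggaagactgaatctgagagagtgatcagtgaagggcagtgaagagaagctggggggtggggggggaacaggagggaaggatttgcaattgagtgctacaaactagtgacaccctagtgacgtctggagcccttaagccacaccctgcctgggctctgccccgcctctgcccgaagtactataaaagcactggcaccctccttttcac
Irf8: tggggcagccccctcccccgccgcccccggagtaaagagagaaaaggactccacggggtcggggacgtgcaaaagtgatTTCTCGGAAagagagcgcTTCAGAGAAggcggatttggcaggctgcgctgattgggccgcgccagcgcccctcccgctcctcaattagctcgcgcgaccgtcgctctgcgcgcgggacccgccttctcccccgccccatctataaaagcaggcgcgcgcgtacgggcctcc
Irf5: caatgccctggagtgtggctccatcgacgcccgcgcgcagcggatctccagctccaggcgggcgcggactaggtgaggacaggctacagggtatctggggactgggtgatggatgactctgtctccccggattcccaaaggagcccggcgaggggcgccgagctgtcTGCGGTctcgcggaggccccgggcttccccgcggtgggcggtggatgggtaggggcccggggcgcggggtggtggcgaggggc

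The motifs were the core of the ISRE bound by IRFs (GAAA and GAAA with any 2 bases between), the GAS element bound by STAT dimers (TTC and GAA with any 3 bases between), its STAT6 variant (TTC and GAA with any 4 bases between), the RUNX site (TGTGGT or TGCGGT) and the kB site of NF-κB (GGG and TTTCC with any 2 bases between, or GGG and TTCC with any 3). A match is a description of the letters in the window. Of 32851 RefSeq promoter windows of the same length, 2.98% held the ISRE core, 7.02% the GAS element, 5.85% the STAT6 variant, 18.6% a RUNX site and 4.65% a kB site. Irf2 held the ISRE core GAAAATGAAA at 241 to 232 bases before the start, the GAS element TTCCGAGAA at 224 to 216 and the kB match GGGGATTTCC at 17 to 8. Irf8 held the GAS elements TTCTCGGAA at 171 to 163 and TTCAGAGAA at 153 to 145 bases before the start. Irf1 (chr11:53769764-53770013) held the GAS element TTCCCCGAA at 90 to 82 bases before the first of its starts. A RUNX site lay at 83 to 78 bases before the start of Irf5, at 37 to 32 before Irf3 (chr7:44997398-44997647) and, on the other strand, at 197 to 192 before a second start of Irf8 (chr8:120738389-120738638). The windows of Irf4, Irf7 and Irf9 held none of these letters.

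Irf2 showed the steepest fall. The gene, ENSMUSG00000031627, lies on the plus strand of chromosome 8 at 47825099 to 47932812 (mm9), and its product is the repressor that competes with IRF1. It measured 187, 191 and 185 normalized CPM in Cre-only cells at rest and 41.1, 38.2 and 37.8 at 3 h. In Runx1-deficient cells it measured 195, 165 and 181 at rest and 30.4, 42.7 and 38.2 at 3 h. Resting and activated samples were separated by a wide gap in both genotypes. The log2 fold change on activation was -2.26 ± 0.12 (SE) in Cre-only cells (edgeR adjusted p = 1.77e-08), a 4.80-fold fall, and -2.28 ± 0.12 in Runx1-deficient cells (edgeR adjusted p = 2.56e-08). This is the promoter with the ISRE core, the GAS element and the kB match printed above.

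Irf1, the activator that shares sites with IRF2 (ENSMUSG00000018899, chromosome 11, 53583516 to 53591876, plus strand, mm9), fell less and with more spread. It measured 180.3, 179 and 163 normalized CPM in Cre-only cells at rest and 149, 108 and 97.7 at 3 h. The Runx1-deficient samples gave 186, 153 and 154 at rest and 163, 112 and 115 at 3 h. Rest and 3 h did not overlap in Cre-only cells but did in Runx1-deficient cells. The log2 fold change was -0.55 ± 0.17 in Cre-only cells (edgeR adjusted p = 0.0113), and the call was lost without Cre-only 3 h replicate 2 (adjusted p = 0.0502) or replicate 3 (adjusted p = 0.0602). In Runx1-deficient cells it was -0.34 ± 0.17 (edgeR adjusted p = 0.0949), and without Runx1 c-k/o 3 h replicate 1, the library that stood apart, it was -0.55 (adjusted p = 0.00919). Because Irf2 fell further, the ratio of Irf1 to Irf2 per kb was 0.55 to 0.60 in resting Cre-only and 0.53 to 0.60 in resting Runx1-deficient samples, and 1.61 to 2.27 and 1.64 to 3.35 at 3 h. The size of the ratio depends on the length used, and its rise does not. Per kb of the longest transcript, mean Irf1 was above mean Irf2 in resting Cre-only cells (81.4 against 75.5 CPM).

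The lymphoid members Irf4 and Irf8 rose. Irf4 (ENSMUSG00000021356, chromosome 13, 30841095 to 30858796, plus strand, mm9) measured 1369.6, 1469.6 and 1312 normalized CPM in Cre-only cells at rest and 1730.3, 1923 and 1679 at 3 h. In Runx1-deficient cells the values were 1376, 1270.2 and 1412 at rest and 1691, 1679.5 and 1992 at 3 h. All activated samples lay above all resting samples. The log2 fold change was 0.36 ± 0.11 in Cre-only (edgeR adjusted p = 0.00868) and 0.40 ± 0.11 in Runx1-deficient cells (edgeR adjusted p = 0.00462), a rise of 1.28-fold and 1.32-fold. The rise in Cre-only cells was not called when only genes with at least 10 counts in every sample were kept (log2 fold change 0.20, adjusted p = 0.101), nor was that in Runx1-deficient cells with only the 2 groups compared (adjusted p = 0.051).

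Irf8 (ENSMUSG00000041515, chromosome 8, 123260258 to 123280594, plus strand, mm9), a factor of germinal center and early B cell programs, measured 463, 494 and 462 normalized CPM in Cre-only cells at rest and 810.4, 831 and 791 at 3 h. The Runx1-deficient samples gave 462, 504 and 456 at rest and 865, 679.8 and 719.7 at 3 h. Again every activated sample exceeded every resting one, and the highest of the Runx1-deficient 3-h values came from the library that stood apart. The log2 fold change was 0.78 ± 0.10 in Cre-only (edgeR adjusted p = 2.12e-05) and 0.67 ± 0.10 in Runx1-deficient cells (edgeR adjusted p = 7.59e-05). Over all other settings it ran from 0.36 to 0.81 and from 0.28 to 0.75, and stayed called. With single libraries left out it was 0.73 to 0.81 and 0.55 to 0.75. Irf4 exceeded Irf8 per kb by a ratio of 4.25 to 4.45 in resting and 3.18 to 3.46 in activated Cre-only samples.

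The sensor-activated members did not move together. Irf3 (ENSMUSG00000003184, chromosome 7, 52253018 to 52258218, plus strand, mm9), the constitutive member that acts on type I IFN promoters, measured 75.1, 73.2 and 74.8 normalized CPM in resting and 133, 134 and 144 in activated Cre-only cells. In Runx1-deficient cells it measured 80.6, 96.4 and 76.8 at rest and 196, 131 and 141 at 3 h. It rose by 0.88 ± 0.14 on the log2 scale in Cre-only (edgeR adjusted p = 8.87e-05) and by 0.88 ± 0.14 in Runx1-deficient cells (edgeR adjusted p = 8.94e-05). The size of the rise depended on the model. Over all other settings it ran from 0.22 to 0.91 in Cre-only and from 0.23 to 1.01 in Runx1-deficient cells, and stayed called. With single libraries left out it was 0.83 to 0.91 and 0.68 to 1.01. The highest values within both Runx1 c-k/o groups, 96.4 and 196, came from the libraries that stood apart, and without both the rise in Runx1-deficient cells was 0.76 (edgeR adjusted p = 4.13e-09). Irf5 and Irf7, by contrast, fell with activation, as described next together with their difference between genotypes.

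**Figure D2:**
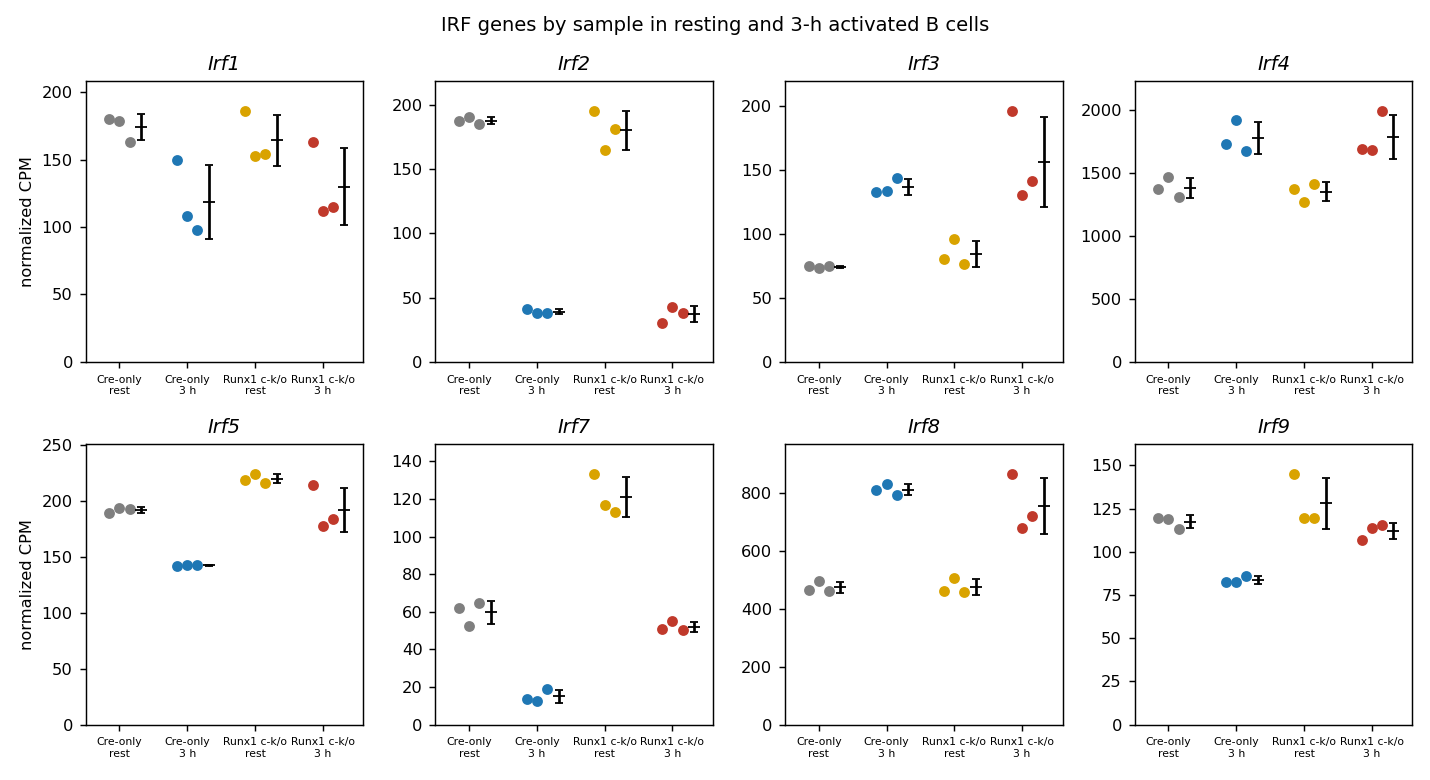
Normalized CPM of the 8 IRF genes (y axis, from 0, a scale of its own for each gene) in the 12 samples by group (x axis), as 1 point per sample in replicate order, with mean ± SD beside them. Irf2 and Irf7 drop and Irf3, Irf4 and Irf8 rise at 3 h. All Runx1-deficient points for Irf7 lie above the Cre-only points of the same time.

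Between genotypes 1 of the 8 genes differed at rest and 3 differed at 3 h. The comparison asks which genes RUNX1 affects before and during activation. At rest Irf7 was higher in Runx1-deficient cells and the other 7 genes were not called, where 1.49% of all tested genes were called, 0.731% higher and 0.761% lower. At 3 h Irf7, Irf5 and Irf9 were higher and none of the 8 was lower, where 2.77% of all tested genes were called, 1.47% higher and 1.30% lower. The 3 samples of one genotype did not overlap those of the other for 3 IRF genes at rest, Irf3, Irf5 and Irf7, where 23.7% of all genes were so separated, and for Irf5, Irf7 and Irf9 at 3 h, where 21.8% were. The median log2 difference of all tested genes was 0.03 at rest and 0.01 at 3 h. An unadjusted p under 0.05 was reached by 11.1% of all genes at rest and 16.2% at 3 h. Calls over all genes also moved with the setting, to 2.79% at rest and 5.24% at 3 h with DESeq2, to 1.72% and 1.29% with only the 2 groups compared, and to 4.35% and 6.65% without both libraries that stood apart.

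Irf7, the amplifier of type I IFN induction (ENSMUSG00000025498, chromosome 7, 148448605 to 148452380, minus strand, mm9), had the largest difference of the family at both times. At rest it measured 62.0, 52.7 and 64.5 normalized CPM in Cre-only and 133, 117 and 113 in Runx1-deficient cells. The 3-h values were 13.6, 12.6 and 19.1 in Cre-only against 50.6, 55.1 and 50.1 in Runx1-deficient cells. The genotypes were separated by a gap at both times, and the activated Runx1-deficient samples lay in or just below the range of the resting Cre-only samples. At rest the log2 difference was 1.02 ± 0.14 (edgeR adjusted p = 0.00289), which is 2.03-fold with a range of 1.67 to 2.46 at 2 SE. At 3 h it was 1.78 ± 0.15 (edgeR adjusted p = 7.17e-05), 3.44-fold with a range of 2.81 to 4.21. Without both libraries that stood apart the log2 differences were 1.05 at rest (adjusted p = 0.00485) and 1.83 at 3 h (adjusted p = 0.000235).

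Irf7 fell with activation in both genotypes, by 1.98 ± 0.15 on the log2 scale in Cre-only (edgeR adjusted p = 1.55e-07) and by 1.22 ± 0.14 in Runx1-deficient cells (edgeR adjusted p = 6.16e-06). The test of the difference between these falls is the interaction of genotype and activation, which was 0.76 ± 0.20 and was not called by edgeR (adjusted p = 0.346). DESeq2's Wald test called it (0.81, adjusted p = 0.0366), as did DESeq2 with a factor of unwanted variation (0.81, adjusted p = 0.00282). In edgeR 0 of 8 IRF genes had a called interaction. At an unadjusted p under 0.05 Irf7 and Irf9 passed, as did 5.07% of all tested genes. With adjustment, of all tested genes 0.0813% were called, which is 11 genes. Among the plasmacytoid dendritic cell markers, Pacsin1 was higher in Runx1-deficient cells at 3 h (log2 difference 0.64, edgeR adjusted p = 0.0185) and Ccr9 lower (-0.76, edgeR adjusted p = 0.0257). The summed level of these 7 markers was 48.3 to 54.3 CPM in Cre-only and 50.5 to 57.5 in Runx1-deficient cells at rest, and 26.7 to 35.7 and 26.3 to 36.1 at 3 h, overlapping between genotypes at both times.

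Irf5 is best known for inflammatory cytokine induction below Toll-like receptors and for its link to lupus. The gene (ENSMUSG00000029771, chromosome 6, 29476625 to 29491869, plus strand, mm9) measured 189, 194 and 193 normalized CPM in Cre-only and 218, 224 and 216 in Runx1-deficient cells at rest. At 3 h it measured 142, 142 and 143 in Cre-only against 214, 178 and 184 in Runx1-deficient cells. The genotypes did not overlap at either time. At rest the log2 difference of 0.19 ± 0.08 was not called (edgeR adjusted p = 0.397), and without both libraries that stood apart it was 0.18 and called (adjusted p = 0.0485). At 3 h the difference was 0.43 ± 0.08 (edgeR adjusted p = 0.0145), a 1.35-fold higher level. It was no longer called without Cre-only 3 h replicate 1, 2 or 3 (adjusted p = 0.0763, 0.0716 and 0.0656) or with only the 2 groups compared (adjusted p = 0.0833), while its size stayed between 0.37 and 0.48. The fall on activation was 0.43 ± 0.08 on the log2 scale in Cre-only cells (edgeR adjusted p = 0.000412), a log2 fold change of -0.43, against -0.19 ± 0.08 in Runx1-deficient cells (edgeR adjusted p = 0.0484). That second call was lost without any of 11 libraries, with adjusted p between 0.0727 and 0.208, and kept without Runx1 c-k/o 3 h replicate 1. The exons of Irf5 share 411 bp, 14.2% of their length, with Tnpo3 on the opposite strand, and the strand setting of the counting is not given in the sources used here. Tnpo3 itself was not called between genotypes (log2 difference at 3 h -0.09 ± 0.08, edgeR adjusted p = 0.588).

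Irf9, the DNA-binding subunit of ISGF3 (ENSMUSG00000002325, chromosome 14, 56222408 to 56228867, plus strand, mm9), measured 119.8, 119 and 113 normalized CPM in resting Cre-only and 145, 119.7 and 119 in resting Runx1-deficient cells. The 3-h values were 82.4, 82.4 and 86.3 in Cre-only against 107, 114 and 115 in Runx1-deficient cells. The genotypes overlapped at rest and were separated at 3 h. The log2 difference was 0.13 ± 0.09 at rest (edgeR adjusted p = 0.639) and 0.42 ± 0.09 at 3 h (edgeR adjusted p = 0.0235), where the level was 1.34-fold higher. At 3 h it was no longer called without Cre-only 3 h replicate 1, 2 or 3 (adjusted p = 0.108, 0.104 and 0.0697), without Runx1 c-k/o 3 h replicate 2 (adjusted p = 0.0658) or with only the 2 groups compared (adjusted p = 0.0611). Without both libraries that stood apart it was 0.48 (adjusted p = 0.000259). With activation Irf9 fell by 0.49 ± 0.09 on the log2 scale in Cre-only cells (edgeR adjusted p = 0.000263), and the value in Runx1-deficient cells was -0.19 ± 0.09 (edgeR adjusted p = 0.0619). Its exons share 123 bp with Rnf31 on the same strand, and Rnf31 was not called between genotypes (log2 difference at 3 h -0.03 ± 0.07, edgeR adjusted p = 0.838).

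For the other 5 members no difference between genotypes was called. At rest the log2 difference was -0.08 ± 0.17 for Irf1, -0.06 ± 0.11 for Irf2, 0.19 ± 0.14 for Irf3 and -0.03 ± 0.11 for Irf4, and Irf8 had the same mean within its spread (473 ± 17.9 against 474 ± 26.5 normalized CPM). At 3 h it was 0.13 ± 0.17 for Irf1, -0.08 ± 0.11 for Irf2, 0.19 ± 0.14 for Irf3, 0.01 ± 0.11 for Irf4 and -0.10 ± 0.10 for Irf8. Adjusted p-values of edgeR's test ran from 0.486 to 0.993 over these 5 genes and both times. The signs of Irf1 at 3 h, of Irf2 and Irf4 at both times, and of Irf8 at rest turned under 1 or more other settings or without single libraries, so no direction is given for them.

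**Figure D3:**
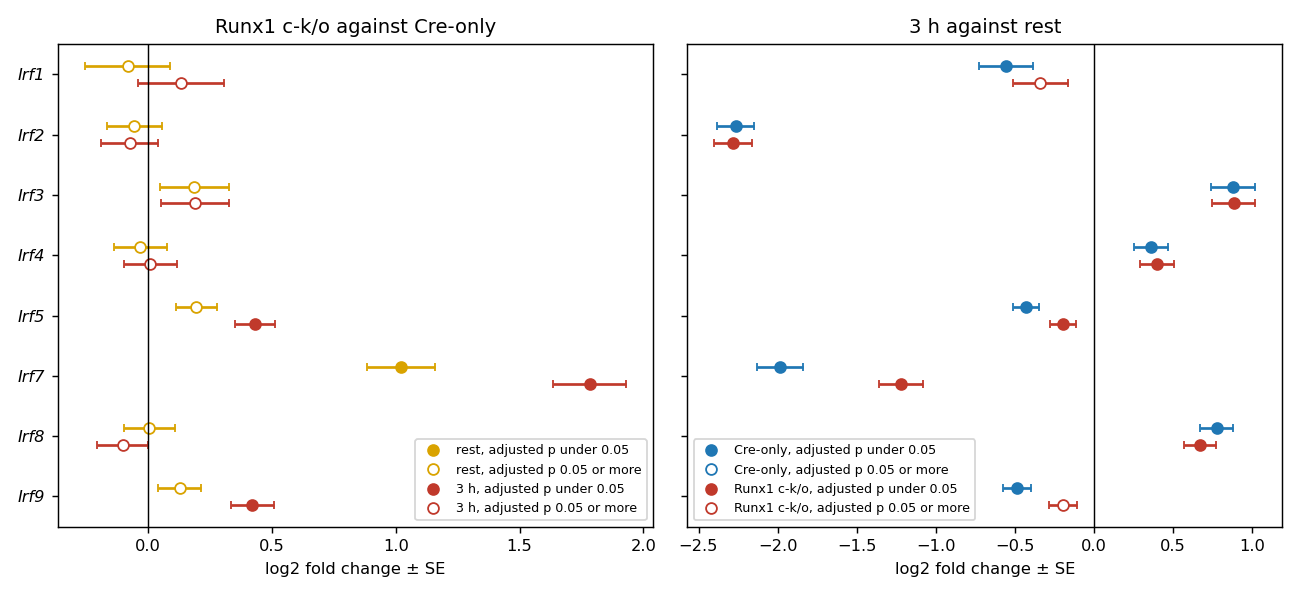
Log2 fold change ± SE of each IRF gene from edgeR, on the left for Runx1-deficient against Cre-only cells at both times, on the right for 3 h against rest in each genotype. Filled points have an adjusted p under 0.05. On the left Irf7 stands at 1.02 and 1.78 and the other genes between -0.10 and 0.43. On the right Irf2 is at -2.26 and -2.28 in the 2 genotypes, and the points of Irf7 lie furthest apart between genotypes, at -1.98 and -1.22.

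**Figure D4:**
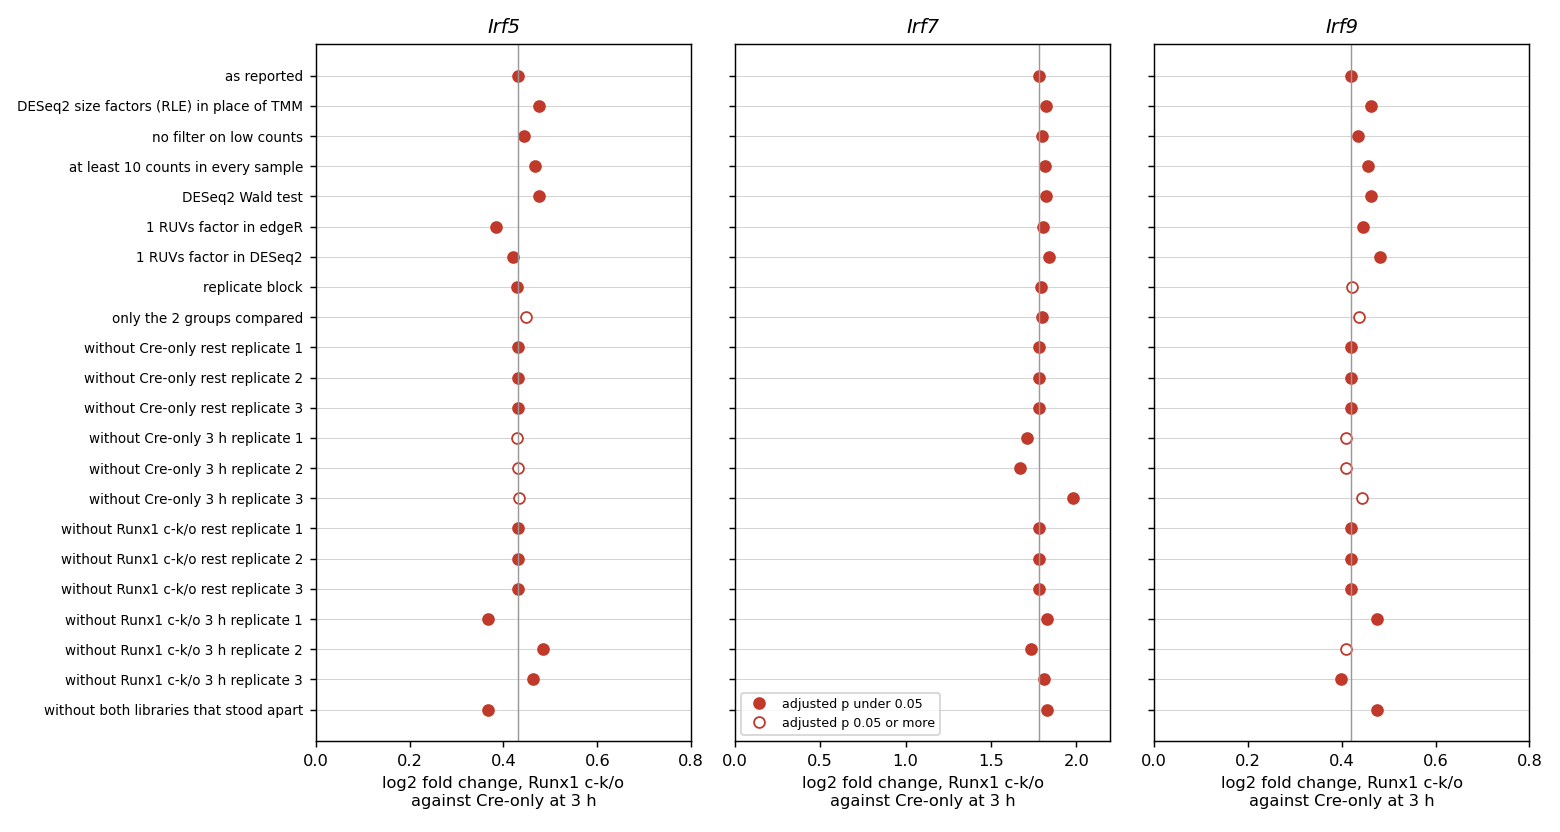
Log2 difference of Runx1-deficient from Cre-only cells at 3 h for Irf5, Irf7 and Irf9 (x axis) as reported and under each other setting or with the named library left out (y axis). Filled points have an adjusted p under 0.05 and the gray line marks the reported value. Irf7 stays between 1.67 and 1.98 and filled throughout, while Irf5 and Irf9 keep their size and lose the call when a Cre-only 3 h library is left out.

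The genes around the IRFs were described by lists written from general knowledge, each by how many of its tested members were called in the same edgeR fit. Among the IFN receptors and their JAK-STAT relay, 1 of 9 genes was higher in Runx1-deficient cells at rest (0.731% of all genes), and 2 were higher and 1 lower at 3 h (1.47% and 1.30% of all genes). Without both libraries that stood apart 3 were higher and 1 lower at each time, while calls over all genes rose to 4.35% at rest and 6.65% at 3 h. The gene called at both times was Ifnar1, a chain of the type I IFN receptor. It measured 163, 159 and 153 normalized CPM in resting Cre-only and 449, 362 and 398 in resting Runx1-deficient cells. At 3 h it measured 174, 169 and 153 in Cre-only against 282, 308 and 324 in Runx1-deficient cells. The log2 difference was 1.35 ± 0.10 at rest (edgeR adjusted p = 3.25e-05) and 0.88 ± 0.10 at 3 h (edgeR adjusted p = 0.000415), with a wide gap between genotypes at each time. Ifnar1 lies on the chromosome of Runx1, at 91485483 to 91507686 of chromosome 16 in mm9, 1.09 Mb from Runx1 (92601712 to 92826311), and the part of this position in the result was not tested. Its neighbors Ifnar2, the other chain, and Ifngr2 were not called at rest (log2 difference 0.42, edgeR adjusted p = 0.107, and 0.02, edgeR adjusted p = 0.924).

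Tyk2, a kinase of the type I receptor, was lower at 3 h, with 55.4, 51.7 and 51.9 normalized CPM in Cre-only and 33.6, 41.7 and 43.3 in Runx1-deficient cells (log2 difference -0.42 ± 0.10, edgeR adjusted p = 0.0405). The call for Tyk2 was lost in 15 of 21 other settings, among them each of the 3 Cre-only 3 h libraries left out (adjusted p = 0.165, 0.111 and 0.105). Stat2, a subunit of ISGF3, was not called at either time. With activation of Cre-only cells 3 of the 9 genes rose, Ifnar2, Ifngr2 and Jak2 (named after their values were seen), and 5 fell. In Runx1-deficient cells 2 rose and 6 fell. Of all genes 38.6% rose and 36.4% fell in Cre-only cells, and 37.7% and 36.6% did in Runx1-deficient cells.

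Upstream of IRF3, IRF5 and IRF7, 19 genes of sensors, adaptors and kinases were tested. At rest edgeR called 0 of 19 between genotypes, with 4 at an unadjusted p under 0.05 (11.1% of all genes) and 0 called by DESeq2. Without both libraries that stood apart 1 was called at rest and 3 at 3 h, against 4.35% and 6.65% of all genes. With all samples 2 were higher and 0 lower at 3 h, against 1.47% and 1.30% of all genes, with a list median of -0.13. The 2 were Zbp1, a nucleic acid sensor, and Ifih1, the cytosolic RNA sensor MDA5. Ifih1 is also in the list of type I IFN response genes described below, so its call counts in both lists. Zbp1 measured 49.6, 47.1 and 46.9 normalized CPM in resting Cre-only and 54.3, 50.6 and 50.3 in resting Runx1-deficient cells, and 29.7, 24.8 and 31.5 against 58.1, 55.6 and 64.0 at 3 h. At 3 h its log2 difference was 1.04 ± 0.10 (edgeR adjusted p = 0.000157) and that of Ifih1 was 1.24 ± 0.21 (edgeR adjusted p = 0.00746), the latter from 3.50, 3.00 and 4.01 normalized CPM in Cre-only and 5.54, 10.4 and 8.95 in Runx1-deficient cells. With only the 2 groups compared Ifih1 was not called (adjusted p = 0.0854). With activation 6 of the 19 rose and 10 fell in Cre-only cells, against 38.6% and 36.4% of all genes. In Runx1-deficient cells 5 rose and 9 fell, against 37.7% and 36.6%.

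Of 13 partners and corepressors of the IRFs, edgeR called 0 between genotypes at either time, and DESeq2 called 0. At an unadjusted p under 0.05 there were 0, against 11.1% of all genes at rest and 16.2% at 3 h. In both genotypes 2 rose and 10 fell with activation. Of all genes 38.6% rose and 36.4% fell in Cre-only cells, and 37.7% and 36.6% did in Runx1-deficient cells. The median log2 fold change of the list was -1.53 in the Cre-only and -1.50 in the Runx1-deficient group. The 2 that rose, named after their values were seen, were Batf, the AP-1 factor that binds with IRF4 (3.33 ± 0.40 and 3.17 ± 0.39 on the log2 scale), and Irf2bp1. Among those that fell were Spi1 (listed as Sfpi1), which encodes PU.1, at -1.62 in Cre-only cells, and Spib at -0.80. SPIB and PU.1 bind DNA with IRF4 and IRF8, whose own genes rose.

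The IFN response genes that ISGF3 controls formed the list with the most calls. Of 25 type I IFN response genes, all tested, 2 were higher and 0 lower in Runx1-deficient cells at rest, with a median log2 difference of 0.49. At 3 h 19 were higher and 0 lower, with a median of 1.35. Of all genes 0.731% were higher at rest and 1.47% at 3 h. An unadjusted p under 0.05 was reached by 15 of the 25 at rest and 25 at 3 h, against 11.1% and 16.2% of all genes. DESeq2 called 5 and 24, against 2.79% and 5.24% of all genes. The difference was above 0 for 25 of the 25 response genes at both times, and the medians of all tested genes were 0.03 and 0.01. Usp18, the feedback inhibitor of the type I receptor, measured 7.76, 7.80 and 6.57 normalized CPM in resting Cre-only and 12.3, 12.6 and 12.1 in resting Runx1-deficient cells. The 3-h values were 6.04, 4.05 and 6.88 in Cre-only against 18.9, 20.3 and 23.1 in Runx1-deficient cells. The genotypes did not overlap at either time, and the log2 difference was 0.74 ± 0.16 at rest (edgeR adjusted p = 0.0461) and 1.87 ± 0.16 at 3 h (edgeR adjusted p = 0.000107). The antiviral 2′-5′ oligoadenylate synthetase Oas1a was at 0.74 ± 0.14 at rest (edgeR adjusted p = 0.0227) and 1.60 ± 0.17 at 3 h (edgeR adjusted p = 0.00029), Rtp4 at 1.69 ± 0.18 at 3 h (edgeR adjusted p = 0.000295) and Oasl1 at 1.38 ± 0.19 at 3 h (edgeR adjusted p = 0.00159).

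The counts called by edgeR depended on single libraries. At 3 h the number of the 25 genes that were higher was 9 without Cre-only 3 h replicate 1, 9 without Cre-only 3 h replicate 2, 12 without Runx1 c-k/o 3 h replicate 2, 24 without both libraries that stood apart and 7 with only the 2 groups compared. The share of all genes called in these fits was 1.30%, 1.40%, 1.88%, 6.65% and 1.29%, against 2.77% with all samples. At rest the 2 calls were lost without Cre-only rest replicate 1, 2 or 3 or Runx1 c-k/o rest replicate 1 or 2, each of which left 0, there was 1 without Cre-only 3 h replicate 1 or Runx1 c-k/o rest replicate 3 or 3 h replicate 2 or 3, and 4 without Runx1 c-k/o 3 h replicate 1, while without both libraries that stood apart there were 7. Over all genes the share called was 0.587% to 1.01% in the fits that left 0, and 4.35% without both libraries. Mean levels of the 25 genes in resting Cre-only cells ran from 1.25 to 286 normalized CPM, and 3 counts correspond to 0.127 to 0.208 CPM. With activation 21 of the 25 fell in Cre-only cells and 0 rose (36.4% and 38.6% of all genes), with a median of -1.67. In Runx1-deficient cells 14 fell and 4 rose (36.6% and 37.7% of all genes), with a median of -0.71. The 4 were Isg15, Ifit1, Usp18 and Bst2, named after their values were seen. The interaction was called for 0 of 25 by edgeR, with 17 at an unadjusted p under 0.05, for 2 by DESeq2 and for 11 by edgeR without both libraries that stood apart. Over all genes these shares were 0.0813%, 5.07%, 0.584% and 1.36%.

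**Figure D5:**
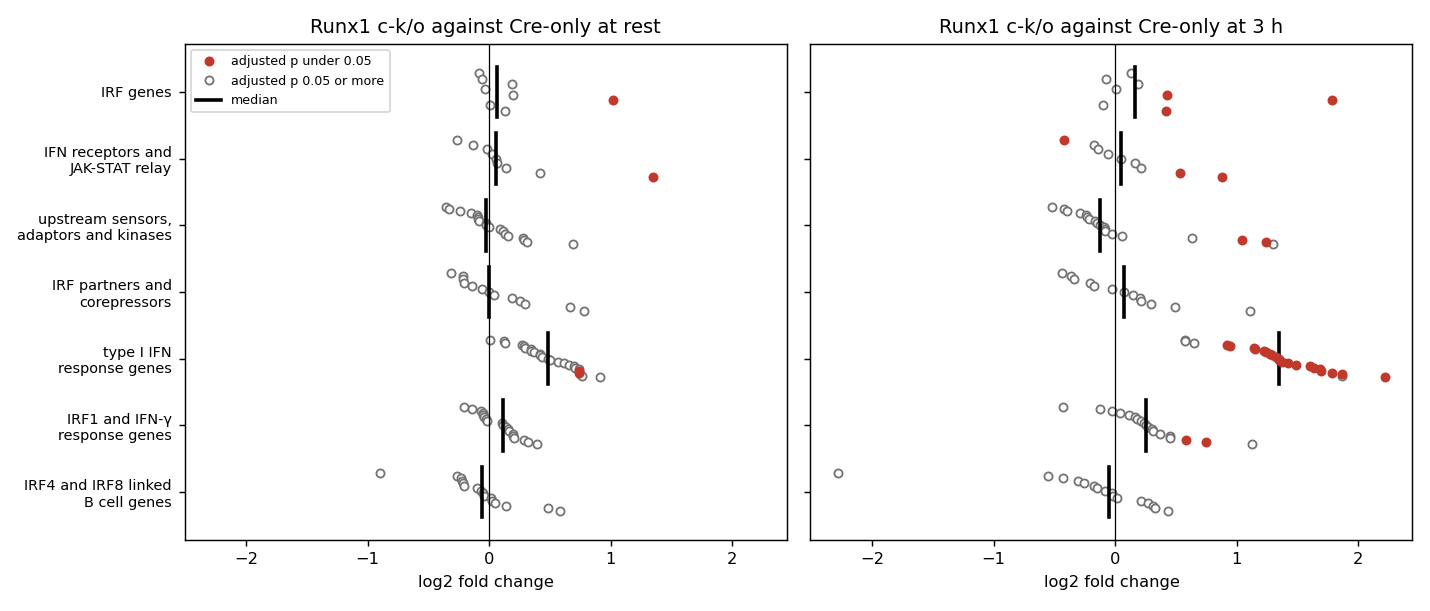
Log2 difference of Runx1-deficient from Cre-only cells from edgeR (x axis) for the 8 IRF genes and the tested members of 6 gene lists (y axis), at rest on the left and at 3 h on the right, with 1 point per gene and a black line at the list median. Filled points have an adjusted p under 0.05. The type I IFN response genes lie to the right of 0 at both times, with medians of 0.49 and 1.35, and the medians of the other lists lie between -0.13 and 0.25.

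Of 19 tested genes linked to the IFN-γ response and to IRF1, edgeR called 0 between genotypes at rest, with 1 at an unadjusted p under 0.05 (11.1% of all genes) and 0 called by DESeq2. At 3 h 2 were higher and 0 lower, against 1.47% and 1.30% of all genes, with a median log2 difference of 0.25. At this time 8 had an unadjusted p under 0.05 (16.2% of all genes) and DESeq2 called 5 (5.24% of all genes). The 2 were the immunity-related GTPases Irgm1 (0.75 ± 0.12, edgeR adjusted p = 0.00541) and Igtp (0.59 ± 0.12, edgeR adjusted p = 0.0176). With only the 2 groups compared neither was called (adjusted p = 0.0611 and 0.0811), and Igtp was not called without Cre-only 3 h replicate 2 (adjusted p = 0.0877) or replicate 3 (adjusted p = 0.0659). Without both libraries that stood apart 5 of the 19 were called, against 6.65% of all genes. On activation 12 fell and 3 rose in Cre-only cells, against 36.4% and 38.6% of all genes. The 3 that rose, named after their values were seen, were Ciita, Socs1 and Irgm2. Of 16 B cell genes linked to IRF4 and IRF8, among them Pax5, Prdm1 and Xbp1, edgeR called 0 between genotypes at either time, with 4 at rest and 5 at 3 h at an unadjusted p under 0.05, where 11.1% and 16.2% of all genes were. DESeq2 called 0 at rest and 1 at 3 h (2.79% and 5.24% of all genes). Without both libraries that stood apart edgeR called 1 at rest and 3 at 3 h (4.35% and 6.65% of all genes). With activation 6 of these 16 rose and 8 fell in Cre-only cells, against 38.6% and 36.4% of all genes. In Runx1-deficient cells 5 rose and 8 fell, against 37.7% and 36.6%. Of 8 genes for type I and type II IFNs, only Ifng passed the filter on low counts, at 0.91 to 1.18 normalized CPM in Cre-only cells at rest, and it was not called between genotypes.

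The tested genes whose pattern over the 12 samples was closest to each of the 3 called members were found by the root-mean-square distance of log2 normalized CPM after centring each gene on its mean. Closest to Irf7 were Oas1a at a distance of 0.23, Tmem26 at 0.31 and Ly6a at 0.31. Tmem26 and Ly6a stood at log2 differences of 1.25 and 1.35 between genotypes at 3 h. They were chosen for their likeness to Irf7 in these same samples, so this is no separate result. Closest to Irf9 were Parp9, Mov10 and Trim12c, at distances of 0.09 to 0.10. Closest to Irf5 were Psen2, Mcl1 and Tmem135, each at 0.08. Within the family the most alike pair was Irf5 and Irf9, at a distance of 0.11, followed by Irf3 and Irf8 at 0.16. These distances describe the 12 samples, which share libraries between all genes, and were given no test.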

How the data were processed

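RNA was selected by poly(A) and made into stranded libraries with the TruSeq kit. The authors converted base calls with CASAVA 1.8.4, aligned the reads to mm9 with TopHat2 2.0.11 and counted them per gene with featureCounts against Ensembl annotation. The deposited values are raw counts, and the strand and multi-mapping settings are not given in the sources used here.

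From these counts, 13538 of 37991 genes passed edgeR's filterByExpr (minimum 10 counts). TMM-normalized CPM were computed, and per-kb levels used the union of exons (GENCODE vM1). One model over all 12 samples was fitted with edgeR 4.0.16 in R 4.3.3 (quasi-likelihood test, Benjamini-Hochberg adjustment over all tested genes, threshold 0.05), comparing the genotypes at each time, activation in each genotype and their interaction. The SE given with edgeR log2 fold changes is the absolute log2 fold change divided by the square root of the test's F statistic. Only the model across all genes was used, since an exact permutation test of 3 against 3 samples cannot go below p = 0.1. The study used RUV-seq factors of unwanted variation with DESeq2, and the alternatives here were 1 RUVs factor, DESeq2 1.42.0, other filters and scalings, a replicate block and each library left out. Totals were 14442251 to 23641552 counts per sample, and the limit that a count of 0 allows (3 counts) covers counting error only.

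The members and gene lists were chosen with earlier results of these data known. Of 177 list symbols 174 matched. Genes were named if they were IRF genes or, within a list, were called between genotypes in either comparison (up to 4 per list, by adjusted p at 3 h). The nearest patterns to the called members and Runx1 were also named. Some genes that this rule takes are not reported here. Promoters came from RefSeq (GRCm38.p6), a different build from the mm9 gene positions, and no coordinates were converted. Replicate numbers were checked for pairing by the correlation of deviations from group means between same-numbered samples. In Cre-only cells rest and 3 h deviated together (0.276, 0.176 and 0.144), whereas same-numbered Runx1 c-k/o samples (-0.254, -0.264 and 0.254) and the genotypes at one time (-0.066 to 0.068) did not. The highest Runx1 c-k/o correlation, 0.477, was between rest replicate 2 and 3 h replicate 1. These are the libraries that stood apart, and a block by replicate number does not pair them.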

Additional observations from a re-analysis of the deposited data

Results flagged for a closer look

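In edgeR's model over all samples, Zbp1, the nucleic acid sensor, was the named gene whose response to activation differed between genotypes by the test of the difference itself. DESeq2's Wald test also called that of Usp18 (adjusted p = 0.000368), Rtp4 (adjusted p = 0.00288) and Irf7 (adjusted p = 0.0366). Zbp1 fell in Cre-only cells (log2 fold change -0.74, edgeR adjusted p = 2.28e-05) and stood at 0.20 in Runx1 c-k/o cells (edgeR adjusted p = 0.0878). The interaction for Zbp1 was 0.93 ± 0.14 (edgeR adjusted p = 0.0282). It was called in 10 of 21 other settings and was lost with the replicate block within genotype (adjusted p = 0.29), in which the Cre-only samples are paired by number, and without any one of 10 of the 12 libraries (adjusted p = 0.0503 to 0.118). It was kept without Runx1 c-k/o rest replicate 2 or 3 h replicate 1.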

How the results depend on the processing

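Over the log2 differences of the 8 IRF genes, 763 values kept direction and side of the threshold, 29 lost the call, 16 gained it and 48 changed sign. Values that kept both could still change in size. With activation of Cre-only cells the other settings gave 0.22 to 0.91 for Irf3 and 0.36 to 0.81 for Irf8. They gave -1.02 to -0.42 for Irf1 and -0.75 to -0.42 for Irf5. Irf7 was called at both times in all 21 alternatives (log2 0.94 to 1.08 at rest and 1.67 to 1.98 at 3 h). Settings without both libraries that stood apart were chosen after seeing the data.

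The count of called IRF genes at rest was 2 without both libraries. At 3 h it was 1 with only the 2 groups compared, 2 with the replicate block and 1 to 3 with single libraries left out. The interaction count was 1 by DESeq2's Wald test and 2 with RUVs in DESeq2. With the replicate block the adjusted p of Irf9 at 3 h was 0.0565, and the block changed no other call of an IRF gene between genotypes. Of the 25 type I IFN response genes it left 0 called at rest and 16 at 3 h. The block within genotype gave Irf1 in Runx1 c-k/o activation an adjusted p of 0.0327, and lost that of Irf5 (0.11). With the longest transcript in place of the exon union, resting Cre-only levels were 81.4 (Irf1), 36.6 (Irf3), 85.6 (Irf5), 26.7 (Irf7), 136 (Irf8) and 30.3 (Irf9) CPM per kb. Irf4 and Irf2 kept 293 and 75.5, so Irf2 stood below Irf8, Irf5 and Irf1.

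All values that changed sign were uncalled and near 0, and the cause was not tested. Without both libraries, Irf1 was at -0.044 at 3 h and -0.015 for the interaction, Irf2 at 0.0080 at rest, 0.069 at 3 h and 0.061 for the interaction, Irf3 at -0.073 for the interaction, and Irf4 and Irf8 at 0.014 and -0.040 at rest. RUVs in edgeR gave 0.0068 for Irf2 and -0.048 for Irf8 at rest and -0.035 for the Irf3 interaction. RUVs in DESeq2 gave Irf2 0.0023 at rest, 0.029 at 3 h and 0.027 for the interaction, and Irf8 -0.054 at rest. For the Irf2 interaction, RLE scaling gave 0.023, DESeq2's Wald test 0.022 and at least 10 counts in every sample 0.035. Irf8 at rest was -0.018 with the latter filter and -0.019 with only the 2 groups compared. The Irf3 interaction was -0.0019 with no filter, -0.0079 with the replicate block and -0.012 with the block within genotype.

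With single libraries left out the ranges were -0.042 to 0.34 for Irf1 at 3 h, -0.12 to 0.0024 for Irf2 at rest, -0.19 to 0.072 for Irf2 at 3 h, -0.071 to 0.014 for Irf4 at rest, -0.077 to 0.068 for Irf4 at 3 h and -0.045 to 0.037 for Irf8 at rest. For the interaction they were -0.13 to 0.14 for Irf2, -0.15 to 0.11 for Irf3 and -0.043 to 0.11 for Irf4.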
